A study of Mus musculus with 9 samples.

Results

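The integrated stress response was examined through 8 transcripts, *Atf4*, *Ddit3*, *Atf3*, *Asns*, *Chac1*, *Trib3*, *Sesn2* and *Ddit4*, which were picked by gene symbol from the 55367 genes counted by RNA-Seq in whole osteosarcomas (OS) of genetically engineered mice. The samples were 4 p53-driven tumors of the genotype Col2.3-Cre/TrpP53fl/+ and 5 Myc-knockin tumors, in which Cre-Lox-Stop-Lox (LSL) precedes c-MycT58A and p53 is also p53fl/+. Both groups therefore carry 1 floxed p53 allele and a Cre driven by the Col2.3 promoter, which is active in osteoblasts, and the Myc-knockin genotype adds a Cre-inducible Myc with the stabilizing T58A change. The deposited columns are headed F187, F325, F331 and F368 for p53-driven tumors and M351, M408, M9, M624 and M664 for Myc-knockin tumors, ages are not in the labels, and the comparison asks whether this stress pathway is expressed differently when MYC is elevated. The labels number the tumors without naming mice, so p values measure the spread between these samples.

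The integrated stress response begins with kinases that sense unfolded protein, amino acid shortage, heme shortage or double-stranded RNA and phosphorylate the initiation factor eIF2. Most translation then slows, while the *Atf4* mRNA, which has upstream reading frames, is translated more. The ATF4 protein pairs with other bZIP factors and activates genes for amino acid synthesis and import, tRNA charging and redox balance, and, under lasting stress, genes linked to cell death. In bone, ATF4 is known as a factor that osteoblasts need for amino acid supply and collagen production. Since much of ATF4's control is translational, transcript counts do not measure the activity of the protein.

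The DNA that ATF4 reads in target promoters is the C/EBP-ATF response element, and its core was searched as TGATGNAA on both strands of RefSeq promoters (build GRCm38.p6, 250 bases before to 50 bases after each annotated start). All 8 genes had a promoter entry, and 4 of them held a match, against 4.51% of 27025 genes with an entry. Since the 8 were picked as genes of the ATF4 pathway, setting these shares side by side is not a test. The matches are shown because they mark which of these genes carry the element close to a RefSeq start. The *Atf3* match lies before a RefSeq start that is inside the gene as GENCODE draws it, 34596 bases from the GENCODE start. Each is printed along the gene's own strand with the core in capitals, and the 3 in *Atf3*, *Chac1* and *Trib3* read the core on the opposite strand.
Atf3, minus strand, chr1:191183425-191183454: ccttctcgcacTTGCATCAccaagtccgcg
Asns, minus strand, chr6:7693214-7693243: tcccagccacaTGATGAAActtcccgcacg
Chac1, plus strand, chr2:119351038-119351067: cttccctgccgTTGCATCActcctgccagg
Trib3, minus strand, chr2:152344028-152344057: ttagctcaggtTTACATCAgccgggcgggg

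The promoters of *Atf4*, *Ddit3*, *Sesn2* and *Ddit4* had no match in this window. The E-box CACGTG, the motif that MYC with its partner MAX binds best, was in none of the 8 windows, against 8.09% of all genes with an entry. A match is a stretch of letters and was not tested for binding.

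Total counts ranged from 2716322 to 17073285 per library. A set of 12 satellite-repeat genes took 23.2% to 81.0% of the counts in F187, M351, M408 and M9 and at most 0.0242% in the other 5 libraries, and reads spread over the genome, estimated from 1779 chemosensory receptor genes, made up to 24.1% of the remaining counts (M9). The small nuclear RNA *Rn7sk* was at 6.35 CPM or less in M624 and M664 and at 6545 CPM or more in the other 7 tumors. CPM are counts relative to the library size after TMM, the trimmed mean of M values. *Myc* ranged from 144 to 1045 CPM in the Myc-knockin tumors and from 43.5 to 67.1 CPM in the p53-driven tumors. Of 15 osteoblast markers, 13 had lower estimates in the Myc-knockin tumors, 2 of them called, and their summed level was 4716 to 47836 CPM against 71622 to 156314 CPM. Each member's value below is therefore given for 9 tumors, without M624 and M664 (7 tumors), and without the 4 satellite libraries (5 tumors).

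The thresholds were those of the study, an adjusted p under 0.05 with a fold change over 1.5. By edgeR, 0 of 8 members were called over the 9 tumors, where 5.27% of the 15365 tested genes were called. An unadjusted p under 0.05 was found for 2 members, *Atf4* and *Sesn2*, and for 4112 of the 15365 tested genes. DESeq2 and limma-voom each called 1 member, *Atf4*, where they called 17.2% and 10.8% of all tested genes. Estimates were lower in the Myc-knockin tumors for 5 members and higher for 3, and the median log2 fold change of the members was -0.30, beside 0.14 over all tested genes. Both groups overlapped for all 8 members, while 13% of tested genes had groups that did not overlap.

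**Figure D1:**
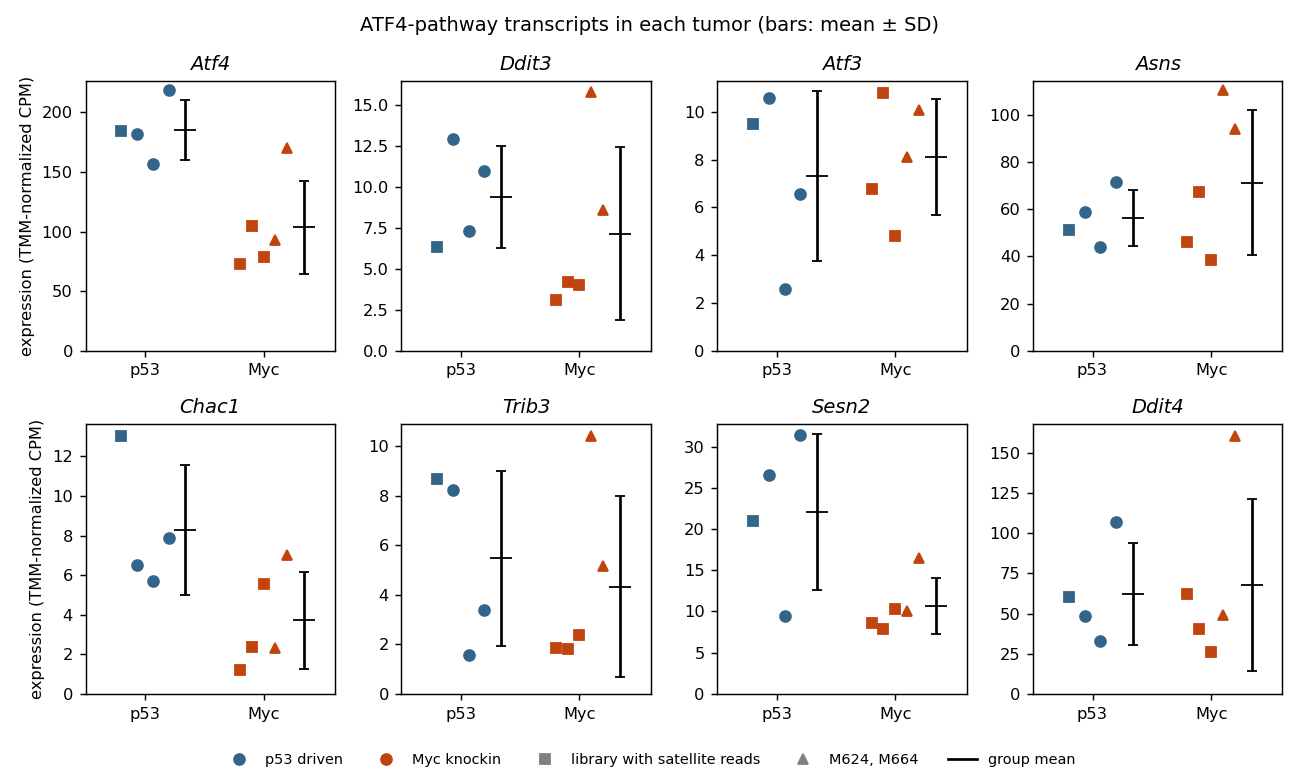
Expression in TMM-normalized CPM of the 8 members in each tumor, with p53-driven tumors in blue and Myc-knockin tumors in orange, squares for the 4 satellite libraries, triangles for M624 and M664, and bars for the mean ± SD of each group. Atf4 was at most 104 CPM in 4 of the 5 Myc-knockin tumors and at least 157 CPM in all 4 p53-driven tumors, and the highest Myc-knockin point was M624 for Ddit3, Asns and Trib3 and M664 for Ddit4.

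*Atf4* (ENSMUSG00000042406, chr15:80255184-80257541 of mm10) encodes the transcription factor on which the response converges. Its expression was 184, 182, 157 and 219 CPM in F187, F325, F331 and F368. It was 72.6, 104, 78.9, 92.7 and 170.0 CPM in M351, M408, M9, M624 and M664. M664 alone among the Myc-knockin tumors fell inside the p53-driven range, and the other 4 were below it. The means were 104 ± 39.1 CPM (SD, n = 5) and 185 ± 25.4 CPM (SD, n = 4), 1.78-fold lower in the Myc-knockin tumors by the fitted log2 fold change of -0.83 (standard error 0.30). By edgeR's quasi-likelihood test the adjusted p was 0.109, and a two-sided exact permutation test over 126 arrangements gave p = 0.0317, unadjusted among the 8 members tested this way, with 0.0159 the smallest p possible. In bulk tissue, fewer cells that express a gene and less RNA of it per cell cannot be told apart.

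The *Atf4* estimate was below 0 in each of the 21 alternative fits, but whether it was called changed with the method and the libraries. DESeq2 gave a log2 fold change of -0.82 (adjusted p = 0.0402) and limma-voom with quality weights -1.16 (adjusted p = 0.0101). Without M664 edgeR gave -1.06 (adjusted p = 0.0395), where 4.87% of all genes were called. Its groups did not overlap among those 8 tumors, as in 17.1% of tested genes. M664 was the only Myc-knockin tumor inside the p53-driven range, so leaving it out fixed this in advance, and it is not a test. Without M624 and M664 it gave -1.05 (adjusted p = 0.0553), and without the 4 satellite libraries it gave -0.47 (adjusted p = 0.351). M664 also had the highest summed osteoblast (47836 CPM), osteoclast (2630 CPM) and macrophage (1227 CPM) marker levels of the Myc-knockin tumors, whose other values ran from 4716 to 22633, from 170 to 412 and from 410 to 737 CPM. The part of these cell types in the *Atf4* value was not tested.

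The 3 tested genes whose log2 CPM followed *Atf4* most closely over the 9 tumors, among 9535 with a mean of at least 10 CPM, were *Zfp810* (Pearson r = 0.96, log2 fold change -0.48), *Leprot* (r = 0.96, log2 fold change -1.03) and *App* (r = 0.96, log2 fold change -1.18). After the group means were removed, r was 0.91, 0.89 and 0.88. These are the highest of many values over few libraries that differ in depth and makeup, and they are given as a description.

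The bZIP partners that are induced with ATF4 showed no common direction. *Ddit3* (ENSMUSG00000025408, chr10:127290774-127296288) encodes CHOP, the factor tied to cell death under lasting stress. It was at 6.32, 12.9, 7.27 and 10.9 CPM in F187, F325, F331 and F368. It was at 3.08, 4.21, 3.98, 15.7 and 8.59 CPM in M351, M408, M9, M624 and M664. The 3 Myc-knockin tumors with satellite reads were below all p53-driven tumors, and M624 was above them all. Over 9 tumors the fitted log2 difference was -0.34 ± 0.51 (SE; adjusted p = 0.704 by edgeR). It was -1.24 (adjusted p = 0.101) without M624 and M664, and 0.25 (adjusted p = 0.689) without the satellite libraries. In M351 and M9 the gene had 5 counts each, of which 1.93 and 2.13 are the estimated genomic background. Its last exon shares 68 bases with *Mars1* on the opposite strand, and the strand setting of the counting is not given, so reads there may be ambiguous. A second gene model of the same name shares 105 bases but is not among the genes counted, so it took no counts.

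*Atf3* (ENSMUSG00000026628, chr1:191170296-191218039), an immediate stress-induced factor of the same family, was at 9.48, 10.6, 2.59 and 6.56 CPM in F187, F325, F331 and F368. It was at 6.77, 10.8, 4.78, 8.12 and 10.1 CPM in M351, M408, M9, M624 and M664. All Myc-knockin tumors but M408 lay within the p53-driven range. M9 held 6 counts, beside 2.68 expected from genomic background. By edgeR the log2 fold change was 0.18 ± 0.46 (SE; adjusted p = 0.832), 0.16 over 7 tumors and 0.50 over 5 tumors.

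*Asns* (ENSMUSG00000029752, chr6:7675169-7693254), the amino acid branch of the response, encodes asparagine synthetase. It was at 51.0, 58.8, 43.8 and 71.5 CPM in F187, F325, F331 and F368. It was at 46.2, 67.2, 38.2, 111 and 93.9 CPM in M351, M408, M9, M624 and M664. M624 and M664 were above every p53-driven tumor, and the other 3 Myc-knockin tumors reached from below that range to within it. A log2 fold change of 0.35 ± 0.34 (SE; adjusted p = 0.541) was fitted. It was -0.074 (adjusted p = 0.889) over 7 tumors and 0.84 (adjusted p = 0.0720) over 5 tumors.

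*Asns* and *Atf4* nevertheless stood in a different proportion in the groups, a comparison chosen after their values were seen and free of any scaling between libraries. Counts of *Asns* divided by those of *Atf4* in the same tumor were 0.277, 0.324, 0.279 and 0.327 in F187, F325, F331 and F368. They were 0.636, 0.644, 0.485, 1.19 and 0.552 in M351, M408, M9, M624 and M664. The lowest Myc-knockin ratio was above the highest p53-driven ratio, with means of 0.702 ± 0.283 (SD, n = 5) and 0.302 ± 0.0274 (SD, n = 4). With the estimated genomic background subtracted, the lowest Myc-knockin ratio was 0.464. *Atf3* was the other member whose ratio to *Atf4* was higher in every Myc-knockin tumor (0.0592 to 0.104 against 0.0165 to 0.0582). There the lowest Myc-knockin ratio became 0.0346 with the background subtracted, inside the p53-driven range. Of the other tested genes, 22.5% had a ratio to *Atf4* that was higher in every Myc-knockin tumor, so the 2 of 7 members were close to that share. The other 5 members overlapped, and the mean ratio of *Sesn2*, 0.106 ± 0.0213 (SD, n = 5) against 0.116 ± 0.0399 (SD, n = 4), was the one nearest to equal.

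**Figure D2:**
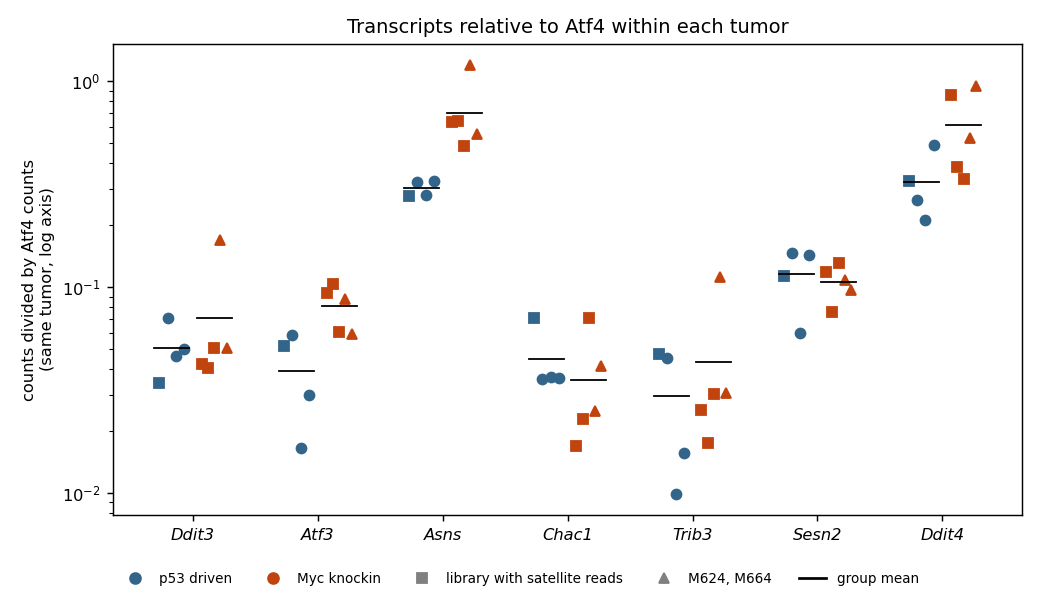
Counts of each other member divided by the Atf4 counts of the same tumor, on a log axis, with p53-driven tumors in blue, Myc-knockin tumors in orange, squares for the satellite libraries, triangles for M624 and M664, and a line at each group mean. The Asns ratios were 0.485 to 1.19 in the Myc-knockin tumors and 0.277 to 0.327 in the p53-driven tumors, while those of Sesn2 overlapped. Of all other tested genes, 22.5% had a ratio to Atf4 that was higher in every Myc-knockin tumor.

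*Chac1* (ENSMUSG00000027313, chr2:119351229-119354381) encodes an enzyme that degrades glutathione. It was at 13.0, 6.53, 5.71 and 7.90 CPM in F187, F325, F331 and F368. It was at 1.23, 2.38, 5.58, 2.32 and 7.04 CPM in M351, M408, M9, M624 and M664. All Myc-knockin tumors but M664 were below the p53-driven range, M9 only just. Its fold change was -1.13 ± 0.55 on the log2 scale (SE; adjusted p = 0.212), -1.43 (adjusted p = 0.159) over 7 tumors and -0.49 (adjusted p = 0.555) over 5 tumors. M351 held 2 counts and M9 held 7 counts, beside 1.84 and 2.04 expected from genomic background, so the level in M351 was under the detection floor of 3 counts.

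*Trib3* (ENSMUSG00000032715, chr2:152337422-152344032), a pseudokinase that feeds back on ATF4, was at 8.69, 8.25, 1.56 and 3.40 CPM in F187, F325, F331 and F368. It was at 1.85, 1.83, 2.39, 10.4 and 5.18 CPM in M351, M408, M9, M624 and M664. High and low tumors occurred in both groups. The estimate over 9 tumors was -0.25 ± 0.69 on the log2 scale (SE; adjusted p = 0.851), -1.37 (adjusted p = 0.258) over 7 tumors and 0.84 (adjusted p = 0.415) over 5 tumors. M351 and M9 held 3 counts each, beside 2.39 and 2.64 expected from background.

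A pair of the members restrain the growth kinase mTORC1. *Sesn2* (ENSMUSG00000028893, chr4:132492032-132510501), a leucine sensor and antioxidant protein that p53 also induces, was at 20.9, 26.5, 9.43 and 31.4 CPM in F187, F325, F331 and F368. It was at 8.62, 7.88, 10.4, 10.02 and 16.5 CPM in M351, M408, M9, M624 and M664. Of the p53-driven tumors F331 alone was as low as the Myc-knockin tumors, and the other 3 were above all of them. edgeR gave a log2 fold change of -1.03 ± 0.38 (SE; adjusted p = 0.119), a 2.04-fold lower level, and the exact permutation test gave p = 0.0635. The estimate was -1.26 (adjusted p = 0.106) over 7 tumors, -0.72 (adjusted p = 0.357) over 5 tumors, and below 0 in all 21 alternatives.

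*Ddit4* (ENSMUSG00000020108, chr10:59949669-59951834) encodes REDD1, which hypoxia and glucocorticoids also induce. It was at 60.4, 48.2, 33.2 and 107 CPM in F187, F325, F331 and F368. It was at 62.2, 40.1, 26.3, 49.2 and 160.5 CPM in M351, M408, M9, M624 and M664. M664 was the highest of all tumors and M9 the lowest, both Myc knockin. With 9 tumors the log2 fold change was 0.13 ± 0.52 (SE; adjusted p = 0.898), -0.47 (adjusted p = 0.507) over 7 tumors and 0.78 (adjusted p = 0.393) over 5 tumors.

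**Figure D3:**
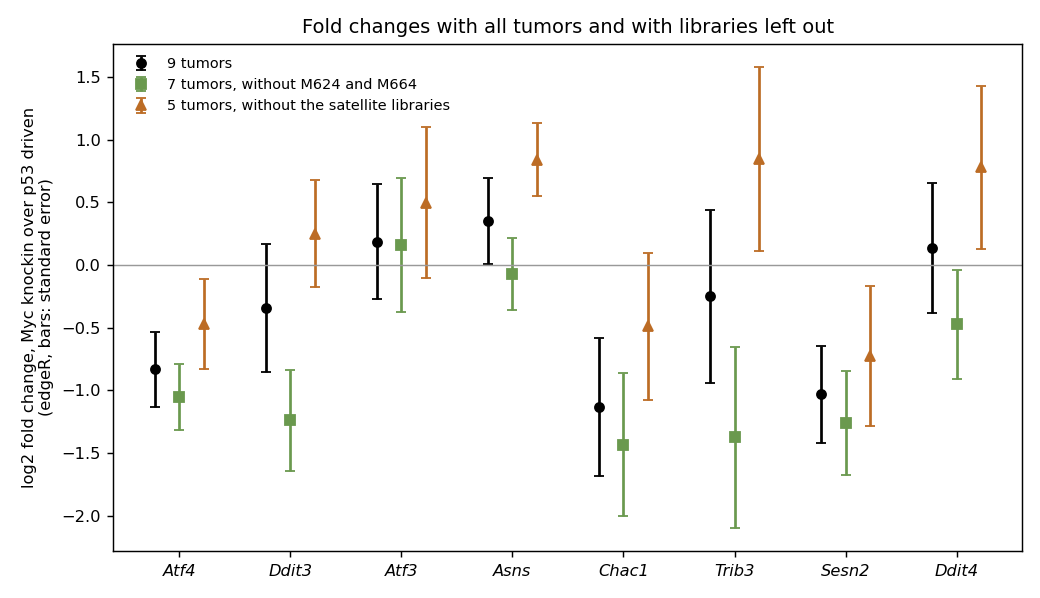
Log2 fold change of each member, Myc knockin over p53 driven, by edgeR with its standard error, over 9 tumors (black circles), without M624 and M664 (green squares) and without the 4 satellite libraries (brown triangles). Atf4, Chac1 and Sesn2 were below 0 with all 3 sets of libraries, and the estimates without the satellite libraries were the highest for each member.

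The library sets gave different pictures of the members as a group. Over the 7 tumors, 7 of 8 members had estimates below 0, with a median log2 fold change of -1.15. Among them, 4 had an unadjusted p under 0.05, as had 3675 of the 14308 tested genes. Over these tumors 0 members were called, where 4.61% of the tested genes were called. *Atf4*, *Ddit3* and *Chac1* did not overlap between these 3 Myc-knockin and 4 p53-driven tumors, against 23.4% of tested genes. For each of them, the Myc-knockin values within or above the p53-driven range were those of the tumors left out. All 3 Myc-knockin libraries of this set hold satellite reads and 3 of its 4 p53-driven libraries do not, so genotype and library type cannot be told apart there. Over the 5 tumors without satellite reads, 3 of 8 were below 0 and the median was 0.37. Again 0 members were called by edgeR, where 27.9% of the tested genes were. *Asns* alone of the members had an unadjusted p under 0.05, as had 7055 of the 16495 tested genes. In that set *Asns* was the 1 member without overlap, against 58.3% of tested genes. With 2 Myc-knockin libraries left, both unlike the rest in *Rn7sk*, genotype and library type cannot be told apart in this set either.

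Per kilobase of exon, *Atf4* was the most abundant member in both groups, at 78.6 ± 10.8 CPM per kilobase (SD, n = 4) in the p53-driven and 44.0 ± 16.6 (SD, n = 5) in the Myc-knockin tumors. In the p53-driven tumors it was above *Ddit4* (35.4 ± 18.1) without overlap of their ranges, *Ddit4* overlapped *Asns* (20.6 ± 4.34), and *Asns* was above *Sesn2* (6.35 ± 2.72) without overlap. The ranges of *Sesn2*, *Ddit3* (5.46), *Chac1* (5.07), *Atf3* (3.39) and *Trib3* (2.58) each overlapped their neighbor's. In the Myc-knockin tumors the 3 most abundant, *Atf4*, *Ddit4* (38.5 ± 30.5) and *Asns* (26.0 ± 11.3), overlapped one another in turn, and *Asns* was above *Ddit3* (4.16 ± 3.08) without overlap. *Atf4* exceeded *Ddit4* in all 4 p53-driven tumors and in 3 of the 5 Myc-knockin tumors.

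Correlations between the members were mostly positive. Of 28 pairs of members, 26 had a Pearson r above 0 over the 9 tumors, with a median of 0.47. With the group means removed, r was above 0 for all 28 pairs and ranged from 0.11 to 0.87, the highest being *Ddit3* with *Asns*. These values share libraries and depth and are descriptions over 9 points. The same was not computed for pairs of other genes, so nothing particular to the members can be read from them.

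Genes of the wider pathway were read from lists, in which 15 different genes were called. With all tumors, edgeR called 5.27% of the 15365 tested genes, and 4112 of the 15365 had an unadjusted p under 0.05. The lists were not tested as sets against these shares, which stand beside each list count below from the same fit. Upstream of ATF4, 1 of 15 tested genes for eIF2 kinases, eIF2 subunits, eIF2B and the eIF2 phosphatase was called. *Eif2ak3*, which encodes PERK, the kinase for unfolded protein in the endoplasmic reticulum, was at 64.0, 56.2, 67.9 and 109.7 CPM in F187, F325, F331 and F368. It was at 20.9, 17.8, 20.7, 28.7 and 24.2 CPM in M351, M408, M9, M624 and M664. Every Myc-knockin tumor was below every p53-driven tumor. *Eif2ak3* fell, with a log2 fold change of -1.72 ± 0.28 (SE; adjusted p = 0.0188 by edgeR), and -1.86 (adjusted p = 0.0297) over 7 tumors. The other kinases were not called, *Eif2ak1* at -0.51 (adjusted p = 0.215), *Eif2ak2* at -0.87 (adjusted p = 0.132) and *Eif2ak4* at 0.059 (adjusted p = 0.919), and the list's median was 0.17.

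Leaving out any of the 3 p53-driven tumors without satellite reads, F325, F331 or F368, ended the calls of all 15 list genes, with 8, 6 and 5 genes called in the whole table. The *Eif2ak3* estimate stayed between -1.82 and -1.49 with each of the 9 tumors left out, and its adjusted p was at most 0.0674. The calls of *Aldh1l2*, *Cdsn*, *Edem1*, *Fosl2*, *Jdp2* and *Sec24d* were likewise lost without each of these 3 tumors and kept without each of the other 6. *Cth*, *Ddr2*, *Dnajb11*, *Dnajc3*, *Hspd1*, *Hspe1*, *P4ha1* and *Pdia4* also lost theirs without F187 or without a Myc-knockin tumor. Over the 7 tumors 5 of the 15 were still called, *Eif2ak3*, *Jdp2*, *Cdsn*, *Ddr2* and *Sec24d*, 9 were not, and *Cth* was not tested. Over the 5 tumors 12 were still called, and *Dnajb11*, *Jdp2* and *Pdia4* were not.

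Of the bZIP factors that can pair with ATF4, 15 of 17 were tested and 2 fell, with a list median of -0.44. *Jdp2*, a repressor of AP-1, had a log2 fold change of -2.51 (adjusted p = 0.0195 by edgeR), from 80.6 ± 33.9 CPM (SD, n = 4) to 14.0 ± 7.27 CPM (SD, n = 5). *Fosl2*, an AP-1 subunit, was at -1.71 (adjusted p = 0.0223), from 186 ± 56.9 to 56.8 ± 18.6 CPM. The ATF4 partner *Cebpb* was not called (0.88, adjusted p = 0.104). Among 24 other ATF4 targets tested of 27, 3 fell: *Cdsn* (-2.85, adjusted p = 0.0242), *Jdp2* again, and *Ddr2* (-1.47, adjusted p = 0.0316), a collagen receptor, with a list median of -0.39.

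Of 23 tested targets of ATF4 in amino acid metabolism, 1 rose, 1 fell and 21 were not called. The median log2 fold change was 0.58, and 17 estimates were above 0. *Aldh1l2*, a mitochondrial folate enzyme, fell by 2.82 on the log2 scale (adjusted p = 0.0320 by edgeR), from 79.0 to 313 CPM in the p53-driven tumors to 5.33 to 48.0 CPM in the Myc-knockin tumors. *Cth*, which makes cysteine, rose (adjusted p = 0.0336 by edgeR), with 2.72 to 19.97 CPM in the Myc-knockin and 0.122 to 1.58 CPM in the p53-driven tumors. It was named after its values were seen, and no fold is given because F325, F331 and F368 held 2, 2 and 1 counts, under the floor of 3 counts. The serine synthesis gene *Phgdh* was not called (2.71, adjusted p = 0.0845) and was at 212 and 141 CPM in M624 and M664 and at 10.99 to 18.3 CPM in M351, M408 and M9, a split chosen after its values were seen. Without the satellite libraries, 7 of 22 genes of the list were called higher and 1 lower, beside 27.9% of all tested genes called. Over the 7 tumors edgeR called 0 of the list, with 5 at an unadjusted p under 0.05, beside 3675 of the 14308 tested genes. None of 13 tRNA synthetase genes was called by edgeR over the 9 tumors (median -0.097), with 2 at an unadjusted p under 0.05, 0 called by DESeq2 and 1 by limma-voom, against 2 called higher by edgeR over the 5 tumors, where 27.9% of all genes were called. None of 8 paralogs of the members was called by edgeR, DESeq2 or limma-voom (median -0.076), and 1 had an unadjusted p under 0.05.

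The parallel arms of the endoplasmic reticulum response, which ATF6 and XBP1 direct, had the lowest median of the stress lists, -0.60. Of 25 genes tested, 5 fell, 0 rose, and 21 estimates were below 0. *Sec24d*, a coat subunit of secretory vesicles, was at -1.72 (adjusted p = 0.0188 by edgeR), *Edem1*, which takes misfolded glycoproteins to degradation, at -1.51 (adjusted p = 0.0260), and *Dnajc3*, a chaperone that also inhibits PERK, at -1.50 (adjusted p = 0.0321). *Pdia4*, a disulfide isomerase, was at -1.42 (adjusted p = 0.0289) and *Dnajb11*, a cochaperone named after its value was seen, at -0.96 (adjusted p = 0.0441). The main chaperone *Hspa5*, or BiP, was at 751 to 876 CPM in the p53-driven and 393 to 560 CPM in the Myc-knockin tumors without passing the test (-0.78, adjusted p = 0.119). Summed over the list, the p53-driven tumors were at 5745, 5904, 6305 and 6183 CPM in F187, F325, F331 and F368. The Myc-knockin tumors were at 3768, 4123, 2752, 3676 and 3471 CPM in M351, M408, M9, M624 and M664, each below every p53-driven tumor. The most abundant genes weigh most in this sum, *Pdia3*, *Hspa5*, *Calr*, *Hsp90b1* and *Canx*, none of which was called. Of these, *Calr*, *Hsp90b1* and *Canx* overlapped between the groups, and *Pdia3* and *Hspa5* did not, as 13% of all tested genes. The median was -0.69 over 7 tumors, with 1 gene called, and -0.64 over 5 tumors, with 7 of 26 genes lower and 2 higher, beside 27.9% of all tested genes called.

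Markers of secreting bone cells were also lower in the Myc-knockin group. Summed osteoblast markers were at 20148, 11357, 22633, 4716 and 47836 CPM in M351, M408, M9, M624 and M664, the tumor order of the list sums above. Osteoblast sums lay lower in every Myc-knockin tumor, as given above, with *Bglap* and *Bglap2*, the genes of osteocalcin, the 2 called. Of 10 osteoclast markers, 8 were called lower, and their sum was 170 to 2630 CPM against 2933 to 14584 CPM. Of 15 macrophage markers, 3 were called lower and 5 had estimates above 0, and the sum was 410 to 1227 CPM against 948 to 1617 CPM. The parts of these cells in the values of *Eif2ak3*, *Atf4* and the chaperone genes were not tested. None of 10 endothelial or 10 muscle markers was called by edgeR, DESeq2 or limma-voom, and 1 and 0 of them had an unadjusted p under 0.05. The muscle sum varied within both groups, from 26.9 to 5582 CPM in the p53-driven and from 11.9 to 2564 CPM in the Myc-knockin tumors. Of 4 leukocyte and 2 red cell markers tested, edgeR called 0, and DESeq2 called 2 leukocyte markers. Red cell sums were 217 and 784 CPM in M624 and M664, 17.5 to 46.9 CPM in M351, M408 and M9, and 6.61 to 21.2 CPM in the p53-driven tumors.

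**Figure D4:**
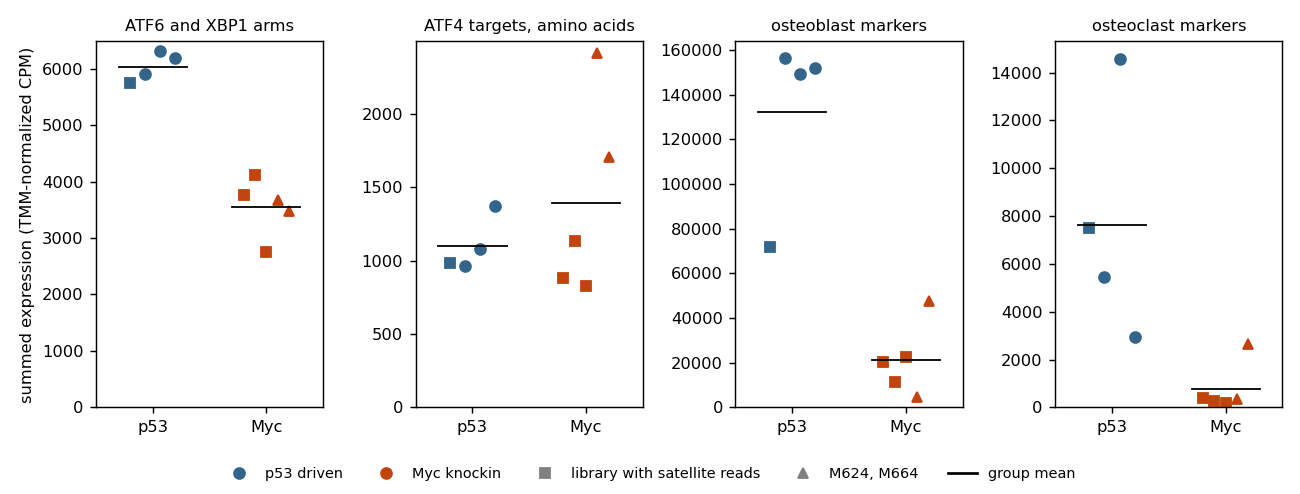
Summed expression in TMM-normalized CPM of 4 gene lists in each tumor, with p53-driven tumors in blue, Myc-knockin tumors in orange, squares for the satellite libraries, triangles for M624 and M664, and a line at each group mean. The ATF6 and XBP1 list, the osteoblast markers and the osteoclast markers were lower in every Myc-knockin tumor, and the amino acid targets of ATF4 overlapped, with M624 and M664 highest.

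Mitochondrial stress genes, which can also feed into ATF4, held the pathway's other rising genes. Of 12 tested of 13, 2 rose, *Hspd1* (1.85, adjusted p = 0.0411 by edgeR) and *Hspe1* (1.48, adjusted p = 0.0476), which encode the paired chaperonins of the mitochondrial matrix. *Hspd1* was at 254, 274, 103, 565 and 367 CPM in M351, M408, M9, M624 and M664 and at 76.9 to 111 CPM in the p53-driven tumors, with M9 inside that range. Neither was called over the 7 tumors (1.34, adjusted p = 0.0667 for *Hspd1*), and *Hspe1* was called in 1 of the 9 fits that leave out a tumor. *Dele1* and *Oma1*, which relay mitochondrial stress to the eIF2 kinase, were not called (0.78, adjusted p = 0.243, and -0.16, adjusted p = 0.833).

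**Figure D5:**
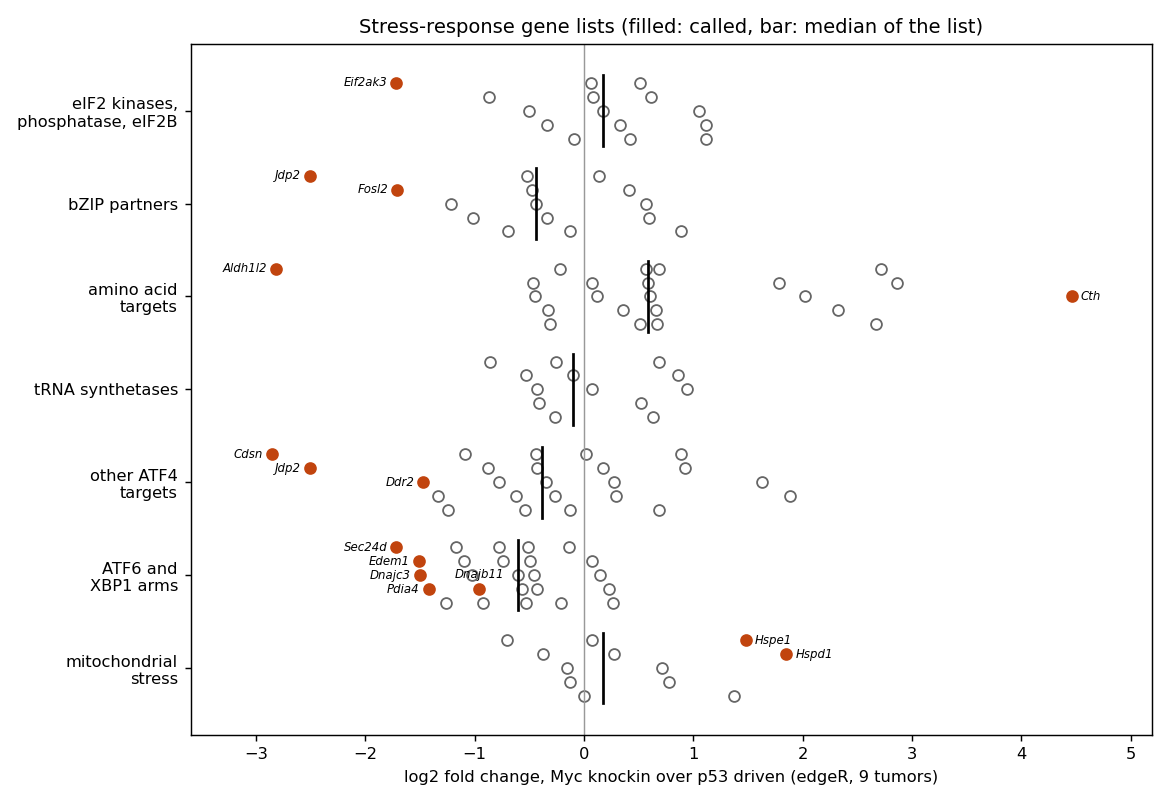
Log2 fold change, Myc knockin over p53 driven, by edgeR over 9 tumors for each tested gene of 7 stress-response lists, with called genes filled and named and a bar at the median of each list. The ATF6 and XBP1 arms had the lowest median, -0.60, and the amino acid targets of ATF4 the highest, 0.58. The point for Cth depends on counts under the detection floor in 3 p53-driven tumors.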

How the data were processed

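RNA-Seq of 9 whole tumors was used. The authors describe stranded libraries with oligo-dT enrichment. The libraries differed in *Rn7sk* and in satellite reads, as given above, and the labels do not say whether all 9 were prepared alike. The authors used Trim Galore for trimming, STAR for mapping (mm10) and featureCounts for counting reads per gene (the versions of STAR and featureCounts and the strand setting are not given in the sources used here). They deposited raw counts, without normalization. No label names a column of the table. The names of 6 columns are listed by genotype in the study's supporting data, and M351, M9 and M664 were placed with the Myc-knockin group by their letter, so columns were used as tumors of a group and not as numbered samples.

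Counts were tested in R 4.3.3 with edgeR 4.0.16 (TMM, filterByExpr with a minimum count of 10, glmQLFit and glmQLFTest) over the whole table, with Benjamini-Hochberg adjustment over 15365 genes and no covariates. Calls needed a fold change over 1.5 with an adjusted p under 0.05. Log2 CPM used a prior count of 2. Exact permutation tests were two-sided. Alternatives included DESeq2 1.42.0, the tool of the study's own comparison, and limma-voom (limma 3.58.1). Scripts were tested on simulated data. Named were the members, *Myc*, up to 4 called genes per list with at least 10 CPM in the higher group, and the 3 genes most like *Atf4*; others are marked in the text or stand beside a called gene as further members of its list. The members, lists and tests were chosen with earlier results of these data known. Gene positions came from GENCODE M21, which holds 55034 of the 55367 identifiers.

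A count of 3, the detection floor, equals 0.114 to 2.39 CPM. This floor covers counting error only.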

Additional observations from a re-analysis of the deposited data

How the results depend on the processing

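The sign of the log2 fold change held in each of 21 alternative fits for *Atf4* (-1.16 to -0.47) and *Sesn2* and in each of 20 for *Chac1*, and the other 5 members changed sign in at least 1. The count of members called moved from 0 to 1, always *Atf4*, with DESeq2 (1) and limma-voom (1), and was 0 to 1 with each tumor left out. Members both called and without overlap of the groups numbered 0 to 1 with a tumor left out, 1 being *Atf4* without M664, where 17.1% of tested genes did not overlap. That lack of overlap follows from leaving out the only Myc-knockin tumor inside the p53-driven range of *Atf4*. The members' median, -0.30, was -1.15 without M624 and M664, -0.93 in the 4 satellite libraries alone, and 0.37 without them. Reversed values were -0.11 (*Asns*) and -0.29 (*Ddit4*) by limma-voom. Without M624 and M664 they were -0.074 (*Asns*) and -0.47 (*Ddit4*). Without the satellite libraries they were 0.25 (*Ddit3*) and 0.84 (*Trib3*), and in those libraries alone -0.30 (*Atf3*), -0.0047 (*Asns*) and -0.52 (*Ddit4*). With each tumor left out in turn, *Trib3* ranged from -0.80 to 0.029, *Atf3* from -0.10 to 0.43 and *Ddit4* from -0.46 to 0.52. The count of 15 pathway genes called changed with the fit, as did the share of all tested genes called, 5.27% in the main fit. It became 3 by library size alone (share 0.885%), 46 by DESeq2 (17.2%) and 25 by limma-voom (10.8%). With every gene of at least 1 count it was 8 (1.04%), and with the filter of 10 counts in each tumor 27 (14.2%). Without M624 and M664 it was 8 (4.61%), and without the satellite libraries 62 (27.9%). A satellite term gave 34 (13.1%), and the satellite libraries alone gave 0 (0%). With each tumor left out it was 0 to 27 (0.0292% to 10.4%). All but 2 of these counts over the lists were added after seeing the data. The causes were not tested. Library size alone moved the median log2 fold change of all tested genes from 0.14 to 0.027. The filter of 10 counts in each tumor left 4 members. No paired analysis was possible because the columns carry no replicate numbers. In M351 and M9 the lowest members had 2 to 7 counts, which limits *Ddit3*, *Chac1* and *Trib3* in both and *Atf3* in M9.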

Other observations

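Other inputs to the members were read from further lists, by edgeR over the 9 tumors. In that fit 5.27% of the 15365 tested genes were called, and 4112 had an unadjusted p under 0.05. None of 19 p53 targets, which share *Sesn2*'s control by p53, was called (median log2 fold change -0.033), with *Cdkn1a* at -0.82 (adjusted p = 0.185), while 8 had an unadjusted p under 0.05, DESeq2 called 6 and limma-voom 0. None of 12 glucocorticoid response genes, which share *Ddit4*'s, was called by edgeR, DESeq2 or limma-voom (median -0.11, 1 at an unadjusted p under 0.05). Of 18 immediate early genes 0 were called (median 0.41), with 3 at an unadjusted p under 0.05 and 1 called by each of the other tools. Of 17 hypoxia response genes, 1 fell, the collagen prolyl hydroxylase *P4ha1* (-1.73, adjusted p = 0.0320), with a median of 0.42. In that list 8 had an unadjusted p under 0.05, DESeq2 called 6 and limma-voom 2. Its sum was 2548 and 2125 CPM in M624 and M664, 516 to 864 CPM in M351, M408 and M9, and 958 to 1313 CPM in the p53-driven tumors. None of 22 mTORC1 regulators was called (median 0.29), with 5 at an unadjusted p under 0.05, 2 called by DESeq2 and 0 by limma-voom. Over the 5 tumors without satellite reads, edgeR called 7 p53 targets, 2 glucocorticoid, 2 immediate early and 7 hypoxia response genes and 6 mTORC1 regulators, beside 27.9% of all tested genes called.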
